A study of Homo sapiens with 8 samples.

Results

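Expression of 10 genes of the Notch pathway was described in the human lens epithelial line SRA01/04, which was immortalised with the large T antigen of a virus. The 10 genes were chosen by name from the 58735 gene identifiers of the RNA-seq count table. They are the receptors NOTCH1, NOTCH2 and NOTCH3, the ligands JAG1, JAG2 and DLL1, the DNA-binding protein RBPJ, and the effectors HES1, HEY1 and HEYL. The 8 libraries form 2 groups: 4 from the knockdown line, which carries the hairpin shSmurf1 against SMURF1, and 4 from the negative control line shControl, whose genotype is labelled WT. Both lines had been kept for 48 h with 20 ng/ml of recombinant TGF-β2, and libraries without it are not part of the comparison. The design text calls the replicates biological without saying whether they were separate cultures. A p-value here therefore sets the difference between the groups against the spread among these libraries only. A second hairpin or a rescue is not named in the labels, and other differences between the 2 lines cannot be told apart from the fall of SMURF1.

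Notch receptors are membrane proteins that are cut when a Jagged or Delta ligand on a neighbouring cell pulls on them. The freed intracellular domain binds RBPJ, which otherwise holds target genes off with corepressors, and with Mastermind proteins switches on HES and HEY repressors. In the mouse lens, Jag1 on fibre cells and Rbpj in the epithelium are needed for normal fibre formation and for keeping the epithelium dividing. SMURF1 is a HECT-type ubiquitin ligase that marks SMAD proteins and TGF-β family receptors for breakdown. The comparison asks what the Notch genes did in lens epithelial cells with the SMURF1 hairpin under TGF-β2.

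The DNA before the transcription starts was read from RefSeq (GRCh38.p14) for 8 of the 10 genes. No window was available for DLL1 and HEY1, which were not searched. The 250 bases before each start were searched on both strands for the core of the RBPJ site, GTGGGAA, which 5.43% of all 35116 RefSeq windows of that length hold. That share is per window, and RBPJ, with several starts, had more windows searched than any other of these genes. The core lay 85 bases before the start of HES1, 178 bases before that of HEYL, and 115 and 73 bases before 1 of the starts of RBPJ. These 4 sites are shown with 10 bases on each side, read along the gene's strand, with the core or its reverse complement in capitals, because they mark which Notch genes hold the letters of the site next to their own start.
HES1, chr3:194136053-194136079, plus strand: gaaagttactGTGGGAAagaaagtttg
HEYL, chr1:39639805-39639831, minus strand: gcctagggccTTCCCACggctcggcgg
RBPJ, chr4:26319621-26319647, plus strand: tttaggaaatTTCCCACggccgtgttg
RBPJ, chr4:26319663-26319689, plus strand: gtggaaggcgGTGGGAAggaggtgtag
The HEYL site and the second RBPJ site lie inside an exon of another annotated transcript of the same gene.

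The windows of the 3 members with the largest changes, NOTCH3, NOTCH2 and JAG1, are shown in full because they carry the main contrast of the data, a receptor that was higher beside a receptor and a ligand that were lower. That of HES1, cut off before the first annotated exon base, is set beside them with its RBPJ core in capitals.
NOTCH3, chr19:15200996-15201245, minus strand: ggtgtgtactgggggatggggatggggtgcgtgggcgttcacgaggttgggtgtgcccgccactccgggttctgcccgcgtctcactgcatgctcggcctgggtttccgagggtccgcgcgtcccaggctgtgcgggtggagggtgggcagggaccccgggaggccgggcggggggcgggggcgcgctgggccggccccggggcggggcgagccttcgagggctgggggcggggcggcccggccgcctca
NOTCH2, chr1:120069663-120069912, minus strand: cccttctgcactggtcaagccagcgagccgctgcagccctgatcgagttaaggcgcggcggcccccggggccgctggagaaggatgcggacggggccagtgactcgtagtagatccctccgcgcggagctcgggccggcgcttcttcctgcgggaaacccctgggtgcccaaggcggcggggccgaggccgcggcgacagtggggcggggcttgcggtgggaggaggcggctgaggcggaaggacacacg
JAG1, chr20:10674000-10674249, minus strand: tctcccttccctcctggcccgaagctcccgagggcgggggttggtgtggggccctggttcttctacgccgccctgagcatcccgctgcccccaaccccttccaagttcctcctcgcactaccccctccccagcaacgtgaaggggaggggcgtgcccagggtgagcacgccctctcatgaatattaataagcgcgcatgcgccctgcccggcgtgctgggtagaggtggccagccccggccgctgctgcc
HES1, chr3:194135898-194136144, plus strand: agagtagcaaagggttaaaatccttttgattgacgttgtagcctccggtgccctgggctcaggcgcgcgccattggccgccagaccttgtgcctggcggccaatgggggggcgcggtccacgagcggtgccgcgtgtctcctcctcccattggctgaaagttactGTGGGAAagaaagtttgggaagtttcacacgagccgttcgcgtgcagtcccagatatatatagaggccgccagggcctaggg
The GC content was 78.0% in the NOTCH3 window with 28 CG pairs, 72.8% in that of NOTCH2 with 29, 68.4% in that of JAG1 with 17, and 59.5% in that of HES1 with 18. The median of all RefSeq windows was 58.0% with 11 CG pairs. The letters CACGTG (an E-box, in 6.34% of all windows), TGANTCA (an AP-1 site, 6.57%) and GTCTAGAC (a SMAD palindrome, 0.182%) were not found in the 4 windows. Among the other members searched, TGANTCA matched once, at the first base of the window of 1 of the starts of RBPJ. A match describes these letters and is no measure of binding.

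Total counts were 14688651 to 16789144 in shSmurf1 and 15000813 to 17030394 in shControl. Levels are given as CPM (a gene's share of the TMM-scaled library, as counts per 1e6) within a gene, and as RPKM (CPM per kilobase of exon) only where genes are set beside each other. SMURF1 itself had 51.1 ± 0.491 CPM in shSmurf1 and 88.9 ± 3.17 CPM in shControl (mean ± SD, n = 4 each), with a log2 fold change of −0.80 ± 0.055 (SE) and an adjusted p of 2.86e-09 by edgeR's quasi-likelihood test, with Benjamini-Hochberg adjustment over 15647 genes. Its exons share 735 bases with TRRAP on the other strand, which had 3512 to 4301 counts in shSmurf1 and 4423 to 4669 in shControl, and the 20 tested genes nearest to it had a median log2 fold change of −0.24. The library shSmurf1 replicate 3 stood apart. Over 1764 genes with at least 60% GC it lay at a median of −0.18 on the log2 scale from each gene's mean, whereas the other shSmurf1 libraries lay at 0.10 to 0.15 and the shControl libraries at −0.08 to −0.01. NOTCH1, NOTCH3 and JAG2 are such GC-rich genes, and their values are therefore also given without that library and with each library's GC trend removed. Of 12 lens epithelial markers, 4 passed the filter on low counts (PAX6, SIX3, CDH2 and GJA1) and 7 had at most 10 counts in every library, among them FOXE3, PITX3, CRYAA and CDH1. The summed marker level was 366 to 412 CPM in shSmurf1 and 454 to 463 CPM in shControl. Most of it was CDH2, with means of 299 CPM in shSmurf1 and 328 CPM in shControl. CDH2 lay lower in every shSmurf1 library but did not pass (log2 fold change −0.14, edgeR adjusted p = 0.0519). GJA1 had 44.8 against 80.0 CPM (edgeR adjusted p = 1.28e-08) and SIX3 12.6 against 16.2 CPM (edgeR adjusted p = 0.0106). PAX6 did not move with GJA1 and SIX3, at 34.0 against 33.3 CPM (edgeR adjusted p = 0.878). Sums were 6.44 to 8.13 against 6.67 to 9.40 CPM for lens fibre markers, 19.6 to 21.99 against 24.9 to 26.1 CPM for retinal pigment epithelium and 1.18 to 3.27 against 2.33 to 3.46 CPM for endothelium. Immune markers summed to 11.6 to 14.4 CPM in shSmurf1 and 6.27 to 8.53 CPM in shControl, mostly CD14, with CD3E at 0. The part of these shifts in the Notch values was not tested.

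Notch receptors moved in opposite directions, with NOTCH3 higher, NOTCH2 lower and NOTCH1 between them. The ligand JAG1 fell to 51.2% of shControl and RBPJ to 78.7%, while the effectors HES1, HEY1 and HEYL did not pass the test. Of the 10 genes, 9 passed the filter on low counts and were tested. 1 of them was higher and 3 were lower at an adjusted p under 0.05, or 44.4%, against 22.5% of all genes tested (10.3% higher, 12.2% lower). The groups did not overlap for 5 of the 9, against 23.7% of all genes. The members were chosen with earlier results of these data known, so these shares are a description and no test. The median log2 fold change was 0.02 over the 9 genes and 0.01 over all genes. With bulk RNA, fewer cells that express a gene and less of its RNA per cell cannot be told apart.

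**Figure D1:**
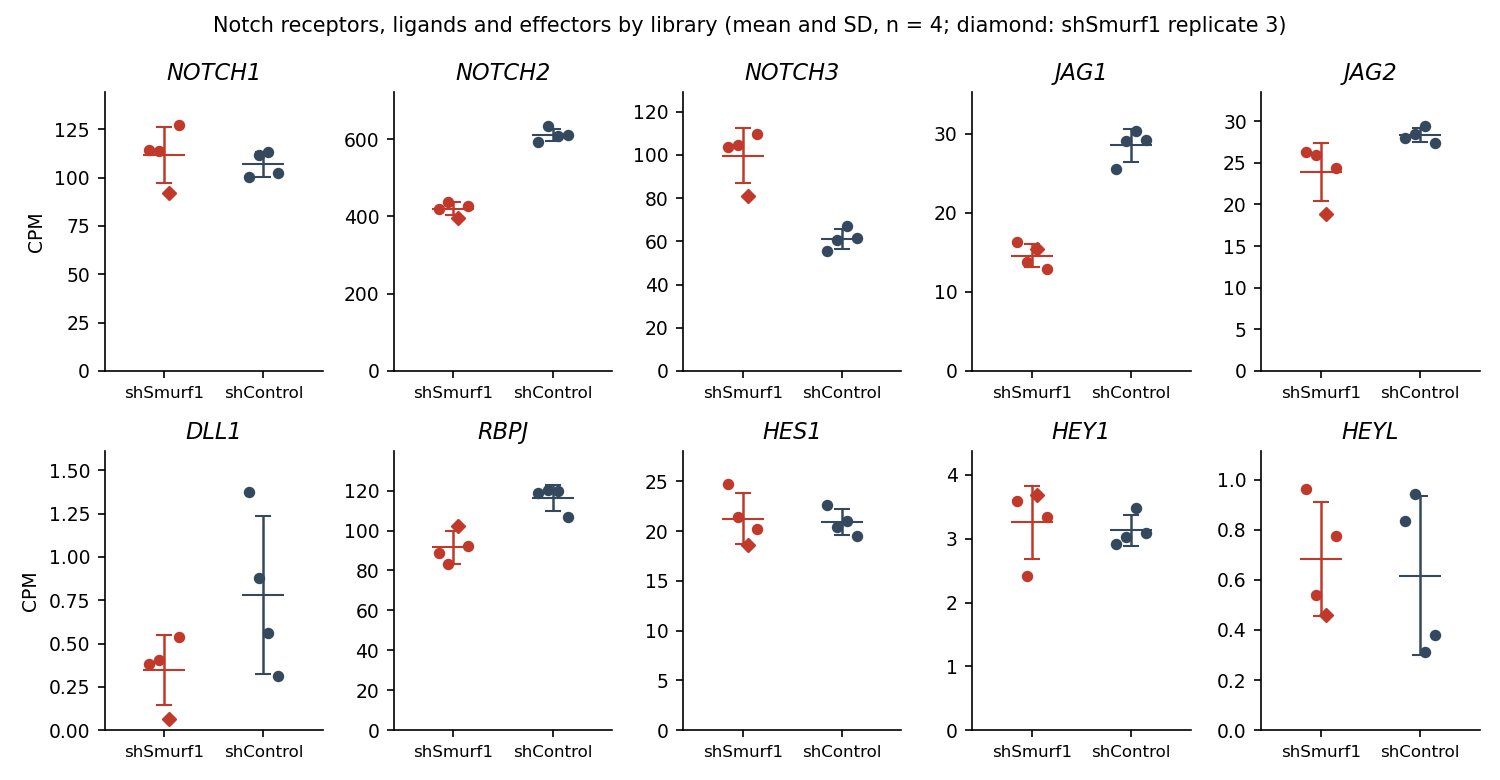
Level of each of the 10 Notch genes (CPM, linear axes from 0) in the 4 shSmurf1 libraries (left of each panel, red) and the 4 shControl libraries (right, grey). Each point is a library, the wide bar the mean and the whiskers the SD; the diamond is shSmurf1 replicate 3, which is the lowest shSmurf1 library for NOTCH1, NOTCH2, NOTCH3, JAG2, DLL1, HES1 and HEYL. NOTCH3 lies above and NOTCH2, JAG1, JAG2 and RBPJ lie below every shControl library.

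NOTCH2 (ENSG00000134250, GRCh38 chromosome 1, 119911553 to 120069626, minus strand) is the receptor with the highest level in these cells. It had 420.0, 436.4, 396.3 and 426.6 CPM in shSmurf1 replicates 1 to 4, against 593.6, 632.6, 606.7 and 610.6 CPM in shControl replicates 1 to 4. The lowest shControl library stood well above the highest shSmurf1 library, and replicates of a group lay close together. The log2 fold change was −0.54 ± 0.046 (95% interval −0.64 to −0.45), with an adjusted p of 5.21e-08 (edgeR quasi-likelihood test). With the GC trend removed it was −0.51. The 20 nearest tested genes on chromosome 1 also leaned downwards, with a median of −0.22 and 5 of 20 lower, and NOTCH2 lay at −0.32 relative to that median. Partial copies of NOTCH2 could share its reads: NOTCH2NLA had 24 to 50 counts in shSmurf1 and 36 to 52 in shControl and did not pass (log2 fold change −0.12, edgeR adjusted p = 0.777), and NOTCH2P1 had at most 1. NOTCH2 itself had 6028 to 7158 counts in shSmurf1 and 9387 to 9948 in shControl.

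NOTCH3 (ENSG00000074181, chromosome 19, 15159038 to 15200981, minus strand), best known as the receptor of vascular smooth muscle, was the 1 member that rose. Its level was 103.4, 104.5, 81.1 and 109.8 CPM in shSmurf1, against 55.7, 60.4, 67.0 and 61.6 CPM in shControl. All shSmurf1 libraries were higher than all shControl libraries, and shSmurf1 replicate 3 came nearest to them. Its log2 fold change was 0.71 ± 0.081 (95% interval 0.54 to 0.87; edgeR adjusted p = 2.88e-06), or 163% of shControl. Without shSmurf1 replicate 3 it was 0.79. After removal of the GC trends the shSmurf1 libraries drew together, at 95.7 ± 3.25 CPM against 63.2 ± 3.67 CPM in shControl (SD, n = 4 each), and the log2 fold change was 0.60 ± 0.048 (edgeR adjusted p = 1.89e-10). Its 20 nearest tested genes had a median of 0.00.

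NOTCH1 (ENSG00000148400, chromosome 9, 136494433 to 136545786, minus strand), the receptor best known from T-cell development and leukaemia, did not pass the test. It had 114.4, 114.0, 92.1 and 127.1 CPM in shSmurf1, against 100.2, 111.5, 113.1 and 102.4 CPM in shControl. The shSmurf1 libraries lay on both sides of the shControl libraries, with replicate 3 the lowest of all 8. The log2 fold change was 0.07 ± 0.076 (95% interval −0.09 to 0.23; edgeR adjusted p = 0.575). Without shSmurf1 replicate 3 NOTCH1 passed as higher at 0.15 ± 0.050 (edgeR adjusted p = 0.0185). With the GC trend removed it lay at −0.04 ± 0.047 (edgeR adjusted p = 0.567), and at −0.03 when that library was left out as well (edgeR adjusted p = 0.705).

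Per length, the receptor RNA shifted from NOTCH2 towards NOTCH3 and NOTCH1. NOTCH3 RPKM was 0.441, 0.428, 0.366 and 0.461 of NOTCH2 RPKM in the shSmurf1 libraries, against 0.168, 0.171, 0.198 and 0.181 in the shControl libraries. The means were 0.424 ± 0.041 in shSmurf1 and 0.179 ± 0.013 in shControl (SD, n = 4 each), and the groups were far apart. Such a ratio within a library does not depend on how libraries are scaled, but it can carry the library's GC trend. NOTCH3 has 63.1% GC, NOTCH1 63.7% and NOTCH2 47.8%, and the ratios and shares keep that trend. With it removed, mean CPM in shSmurf1 and shControl was 95.7 and 63.2 for NOTCH3, 424 and 604 for NOTCH2, and 107 and 111 for NOTCH1. Of the summed RPKM of NOTCH1 to NOTCH4, NOTCH2 held 53.7 ± 2.45% in shSmurf1 and 68.0 ± 1.11% in shControl. NOTCH3 held 22.7 ± 1.24% in shSmurf1 and 12.2 ± 0.713% in shControl, and NOTCH1 23.1 ± 1.35% in shSmurf1 and 19.2 ± 0.664% in shControl. These 3 shares did not overlap between the groups, although the rise of the NOTCH1 share goes with the lower sum it is taken from. NOTCH4 stayed under 1% in every library (0.542 to 0.701% in shSmurf1, 0.505 to 0.803% in shControl). The receptor sum was 46.7 ± 3.64 RPKM in shSmurf1 and 53.5 ± 1.69 RPKM in shControl.

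**Figure D2:**
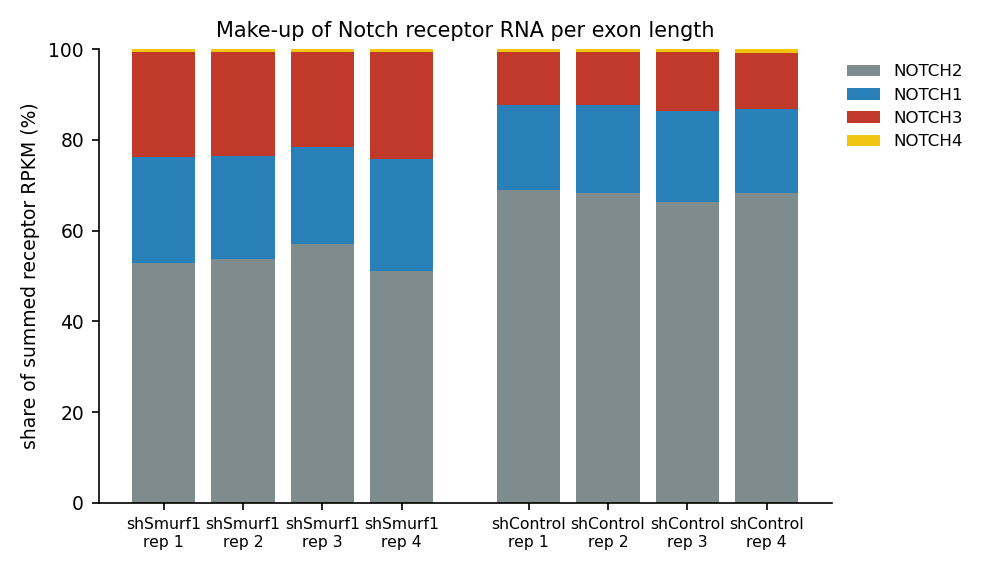
Share of each receptor in the summed RPKM (CPM per kilobase of exon) of NOTCH1, NOTCH2, NOTCH3 and NOTCH4, in percent, for the 4 shSmurf1 libraries (left) and the 4 shControl libraries (right). The NOTCH2 segment ends between 51.2 and 57.0% in shSmurf1 and between 66.4 and 68.9% in shControl, and the NOTCH3 segment spans 20.9 to 23.6% in shSmurf1 and 11.6 to 13.1% in shControl.

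JAG1 (ENSG00000101384, chromosome 20, 10637684 to 10673999, minus strand), the ligand that the mouse lens needs for fibre formation, showed the largest change of the 9 tested members. It had 16.3, 13.8, 15.4 and 12.9 CPM in shSmurf1, against 25.5, 29.05, 30.4 and 29.2 CPM in shControl. Every shSmurf1 library was lower than every shControl library, with the counts at 206 to 254 against 428 to 488. On the log2 scale the difference was −0.97 ± 0.092 (95% interval −1.16 to −0.77; edgeR adjusted p = 2.85e-07) and −0.96 with the GC trend removed. The median of its 20 nearest tested genes was 0.04. An antisense gene that shares 79 exon bases with JAG1, AL050403.2, had at most 1 count in any library.

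JAG2 (ENSG00000184916, chromosome 14, 105140981 to 105168824, minus strand), the second Jagged ligand, lay lower in every shSmurf1 library but did not pass the test. It had 26.3, 26.0, 18.8 and 24.4 CPM in shSmurf1, against 28.0, 28.5, 29.4 and 27.4 CPM in shControl. The gap between the groups was narrow, and shSmurf1 replicate 3 lay far below the rest of its group. On the log2 scale JAG2 differed by −0.25 ± 0.094 (95% interval −0.44 to −0.05; edgeR adjusted p = 0.0649). With the GC trend removed the levels were 22.8 ± 1.39 CPM in shSmurf1 and 29.4 ± 1.08 CPM in shControl (SD, n = 4 each), and JAG2 passed at −0.36 ± 0.070 (edgeR adjusted p = 0.000238). It passed in that fit without shSmurf1 replicate 3 as well (−0.34, edgeR adjusted p = 0.00072). Without that library and with the GC trend kept, the call was not reached (−0.15, edgeR adjusted p = 0.123).

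DLL1 (ENSG00000198719, chromosome 6, 170282206 to 170306565, minus strand), a Delta ligand, was near the limit of detection and did not pass the filter. It had 6, 6, 1 and 9 counts in shSmurf1, against 23, 13, 9 and 5 counts in shControl. The groups overlapped. A fit with no filter gave a log2 fold change of −1.15 ± 0.513 (edgeR adjusted p = 0.164). A difference between the groups was not detected at these counts.

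JAG1 RPKM was 0.430 ± 0.093 of JAG2 RPKM in shSmurf1 and 0.693 ± 0.047 in shControl (SD, n = 4 each), with the highest shSmurf1 library at 0.563 and the lowest shControl library at 0.627. That highest library was replicate 3, in which JAG2 was low. The RPKM of JAG1, JAG2 and DLL1 summed to 5.41 ± 0.584 in shSmurf1 and 7.74 ± 0.247 in shControl, and the groups did not overlap. Receptor RPKM (NOTCH1 to NOTCH4) was 8.66 ± 0.579 times this ligand sum in shSmurf1 and 6.91 ± 0.157 times in shControl. The ligand sum was lower by a larger factor than the receptor sum. It leaves out DLL3, at 3.21 ± 0.337 RPKM in shSmurf1 and 3.49 ± 0.607 RPKM in shControl, on average above JAG1. DLL3 did not pass (log2 fold change −0.12, edgeR adjusted p = 0.579), and the ratio describes JAG1, JAG2 and DLL1 only.

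RBPJ (ENSG00000168214, chromosome 4, 26163455 to 26435131, plus strand), the DNA-binding protein on which signals from all Notch receptors converge, fell. It had 88.5, 83.0, 102.4 and 92.3 CPM in shSmurf1, against 118.7, 120.2, 119.6 and 106.5 CPM in shControl. The groups were close but did not overlap: the gap lay between shSmurf1 replicate 3, the highest of its group, and shControl replicate 4, the lowest of its group. RBPJ had a log2 fold change of −0.34 ± 0.064 (95% interval −0.48 to −0.21; edgeR adjusted p = 0.000545). RBPJ is a GC-poor gene (40.8% GC). With the GC trend removed it lay at −0.28 ± 0.047 (edgeR adjusted p = 4.94e-05). The 20 tested genes around it had a median of −0.01. The 4 processed copies of RBPJ in the table, RBPJP2, RBPJP5, RBPJP6 and RBPJP7, had 0 counts in every library.

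HES1 (ENSG00000114315, chromosome 3, 194136145 to 194138732, plus strand), the repressor whose promoter holds the RBPJ core shown above, had 24.7, 21.4, 18.6 and 20.3 CPM in shSmurf1, against 22.6, 20.4, 21.05 and 19.6 CPM in shControl. The shSmurf1 libraries spread on both sides of the shControl libraries. The log2 fold change was 0.02 ± 0.094 (edgeR adjusted p = 0.898), and its 95% interval of −0.17 to 0.22 does not reach the size of the falls of JAG1, NOTCH2 or RBPJ. HES1 RPKM was 1.05 ± 0.193 times RBPJ RPKM in shSmurf1 and 0.808 ± 0.040 times in shControl, with overlap between the groups.

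HEY1 (ENSG00000164683, chromosome 8, 79764010 to 79767863, minus strand), a repressor downstream of Notch and BMP signals, had 3.59, 2.42, 3.68 and 3.34 CPM in shSmurf1, against 2.92, 3.03, 3.49 and 3.09 CPM in shControl. The groups overlapped, on 36 to 56 counts per library in shSmurf1 and 45 to 56 in shControl. The log2 fold change was 0.06 ± 0.19 (95% interval −0.35 to 0.46; edgeR adjusted p = 0.873), so a fall of the size of that in RBPJ lies just within the interval. HEYL (ENSG00000163909, chromosome 1, 39624153 to 39639945, minus strand), a relative that is known as a NOTCH3 target in vascular smooth muscle, had 15, 8, 7 and 13 counts in shSmurf1, against 14, 14, 5 and 6 in shControl. Its log2 fold change was 0.16 ± 0.42 (95% interval −0.72 to 1.04; edgeR adjusted p = 0.837). At this depth counting alone gives a coefficient of variation of 30.5% between shSmurf1 libraries and 32.0% between shControl libraries, and neither a doubling nor a fall of the size of that in NOTCH2 lies outside the HEYL interval.

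**Figure D3:**
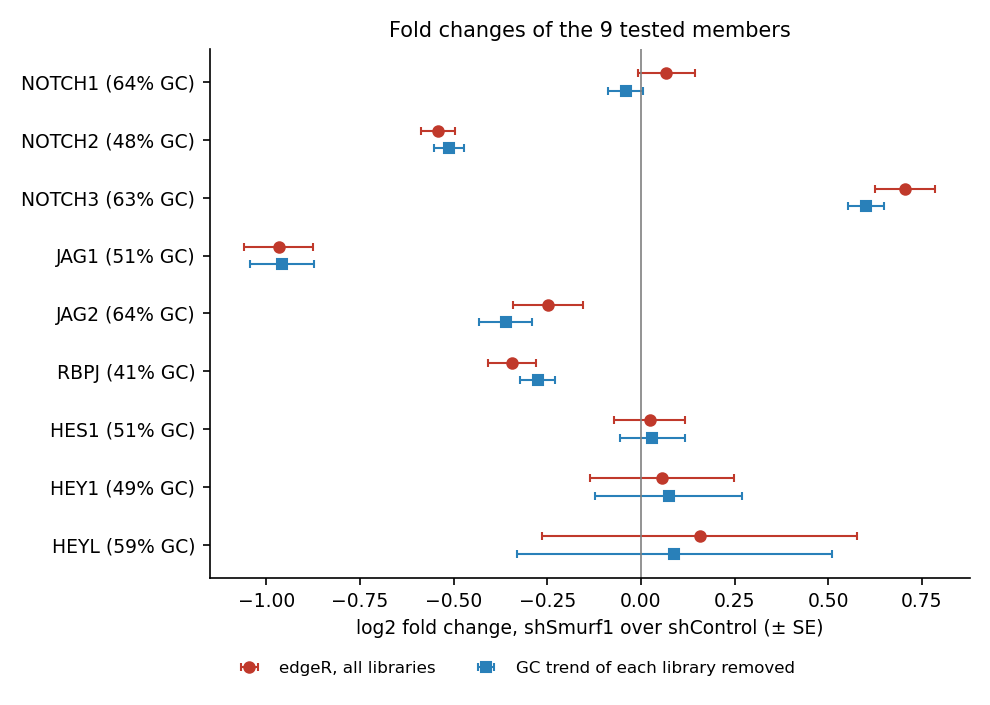
log2 fold change of the 9 tested Notch genes, shSmurf1 over shControl, with whiskers of 1 SE: all libraries as counted (red circles) and with each library's trend with GC content removed (blue squares). The GC content pooled over all annotated transcripts of each gene is given beside its name. NOTCH2, NOTCH3, JAG1 and RBPJ keep their side of zero, NOTCH1 crosses it, and JAG2 moves away from zero.

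Ordered by level per length, NOTCH2 stood first in shSmurf1 with 24.98 ± 1.02 RPKM. NOTCH1 (10.8 ± 1.40), NOTCH3 (10.6 ± 1.36), HES1 (10.3 ± 1.254) and RBPJ (9.89 ± 0.880 RPKM) followed, with ranges that overlapped. JAG2 (3.73 ± 0.543), JAG1 (1.57 ± 0.161) and HEY1 (1.01 ± 0.179 RPKM) came next and did not overlap with their neighbours in the order. HEYL (0.187 ± 0.062) and DLL1 (0.108 ± 0.062 RPKM) stood last and overlapped. In shControl the order was NOTCH2 (36.3 ± 0.965), RBPJ (12.6 ± 0.704), NOTCH1 (10.3 ± 0.621) with HES1 (10.1 ± 0.626), NOTCH3 (6.51 ± 0.493), JAG2 (4.43 ± 0.132), JAG1 (3.07 ± 0.225), HEY1 (0.970 ± 0.076), DLL1 (0.242 ± 0.141) and HEYL (0.169 ± 0.087 RPKM). There NOTCH1 and HES1 overlapped, as did DLL1 and HEYL. NOTCH3 thus stood apart from NOTCH1 in shControl and overlapped with it in shSmurf1.

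Other genes of the pathway were taken from 8 lists by role, chosen with earlier results of these data known. Of 81 listed genes, 80 were in the table and 68 were tested. 8 were higher and 9 lower, 17 in all, a share close to the 22.5% of all genes tested, and the median log2 fold change was 0.03. Without shSmurf1 replicate 3, 17 were higher (14 with the GC trend removed as well). Only 5 were higher without shSmurf1 replicate 1 or shControl replicate 1, 3 or 4. Over all genes, 2601 of 15878 were higher without shSmurf1 replicate 3, against 1611 of 15647 with all libraries. The rise in calls without that library was therefore not limited to these lists. With 1 library left out, the lowest count of all genes higher was 1216. Among 4 other receptors and ligands tested, 1 passed: DNER, a non-canonical ligand, was higher (0.15 ± 0.053 SE, edgeR adjusted p = 0.0438). DLK2 did not pass (0.27, edgeR adjusted p = 0.0621), although leaving out shSmurf1 replicate 3 brought it past the threshold (edgeR adjusted p = 0.0256). Of 9 proteases that cut Notch, 1 passed: APH1B, a γ-secretase subunit, was lower (−0.43 ± 0.097, edgeR adjusted p = 0.00311). APH1A, the most abundant γ-secretase subunit per length among those that did not pass, lay at 0.06. Of 5 glycosylation enzymes, RFNG (radical fringe) was higher (0.33 ± 0.088, edgeR adjusted p = 0.0109), and lay at 0.21 with the GC trend removed. It shares 835 exon bases with GPS1 on the other strand, which had 2597 to 3246 counts in shSmurf1 and 2034 to 2401 in shControl. The groups overlapped for RFNG, with 32.2 CPM in shSmurf1 replicate 3 and 33.3 CPM in shControl replicate 4. POFUT1, which adds O-fucose to Notch, did not pass (−0.09).

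Among 15 ubiquitin ligases and endocytic adaptors, NUMB, an adaptor that counteracts Notch, had 110 ± 6.43 CPM in shSmurf1 and 136 ± 2.58 CPM in shControl (log2 fold change −0.30 ± 0.053; edgeR adjusted p = 0.00032). DTX3L, a deltex-type ligase, was higher (0.30 ± 0.069, edgeR adjusted p = 0.00402) and shares 217 exon bases with PARP9, which had 341 to 385 counts in shSmurf1 and 258 to 315 in shControl. NUMBL, the relative of NUMB, lay at 0.07 and passed in none of the fits but the one that left out shSmurf1 replicate 3 (edgeR adjusted p = 0.0262). Of 7 coactivators, the Mastermind genes MAML3 (−0.53 ± 0.12, edgeR adjusted p = 0.00366) and MAML2 (−0.25 ± 0.073, edgeR adjusted p = 0.0187) were lower, and MAML1 had 115 ± 5.27 CPM in shSmurf1 and 115 ± 4.84 CPM in shControl. MAML3 shares 252 exon bases with MGST2, which had 147 to 184 counts in shSmurf1 and 111 to 140 in shControl. Of 14 corepressors, 3 were higher, against 10.3% of all genes tested. They were TLE2 (0.34 ± 0.068, edgeR adjusted p = 0.000892), TLE3 (0.18 ± 0.062, edgeR adjusted p = 0.049), both of the Groucho family, and SPEN, which binds RBPJ (0.15 ± 0.051, edgeR adjusted p = 0.0444). The groups overlapped for SPEN. TLE2 has 62.5% GC and TLE3 59.9%. Among the alternative fits other than leaving out 1 library alone, the lowest log2 fold change was 0.24 for TLE2 and 0.09 for TLE3. TLE2 stayed past the threshold under all 18 alternatives. In either direction 13.3% of the ligases and adaptors, 28.6% of the coactivators and 21.4% of the corepressors passed, against 22.5% of all genes tested. AES, a short Groucho relative, lay at 0.01. The count of higher corepressors was 6 without shSmurf1 replicate 3, 2 without shControl replicate 2, and 1 without each of the other 6 libraries. The count of all genes higher was also largest without shSmurf1 replicate 3, at 2601 of 15878.

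Of 10 other genes listed for the HES and HEY family, 5 were tested, and 4 had at most 10 counts in every library. Among the 5 tested, 2 were higher and 1 was lower, or 60%, against 22.5% of all genes tested. That list was chosen with earlier results of these data known, so its share is a description and no test. HES6, which opposes HES1 in the mouse, was higher, at 15.8 ± 2.19 CPM in shSmurf1 and 11.0 ± 0.337 CPM in shControl (edgeR adjusted p = 0.0017). The HES6 difference was 0.52 ± 0.11 on the log2 scale and 0.35 with the GC trend removed. BHLHE40, a clock-related repressor, was higher (0.21 ± 0.050, edgeR adjusted p = 0.0044), and its relative BHLHE41 was lower (−0.53 ± 0.099, edgeR adjusted p = 0.000564). HES4 lay at 0.21 and passed in the fit that left out shSmurf1 replicate 3 (edgeR adjusted p = 0.00899), not with all libraries. Of 9 other genes that Notch induces in several tissues, 4 were lower, against 12.2% of all genes tested, and the median was −0.32. This list too was chosen with earlier results of these data known, so its count is a description and no test. They were ACTA2, the smooth muscle actin of myofibroblasts (4.15 ± 0.903 CPM in shSmurf1 and 8.15 ± 1.31 CPM in shControl; log2 fold change −0.97 ± 0.17, edgeR adjusted p = 0.0003), MYC (−0.32 ± 0.056), the cell-cycle inhibitor CDKN1A (−0.32 ± 0.078) and the oxidase NOX4 (−0.32, edgeR adjusted p = 0.0452). ACTA2 shares 380 exon bases with FAS, which lies on the other strand and had 118 to 146 counts in shSmurf1 and 235 to 303 in shControl. The groups overlapped for CDKN1A, with 332 CPM in shSmurf1 replicate 1 and 329 CPM in shControl replicate 2. CCND1, with 797 ± 28.6 CPM in shSmurf1 and 772 ± 28.9 CPM in shControl, did not pass (0.04 ± 0.045). These genes answer to many signals besides Notch. The calls on DNER, MAML2, TLE3, SPEN and NOX4 were lost in at least 1 of the fits that left out 1 library, and that on RFNG without shControl replicate 1 (edgeR adjusted p = 0.0562).

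**Figure D4:**
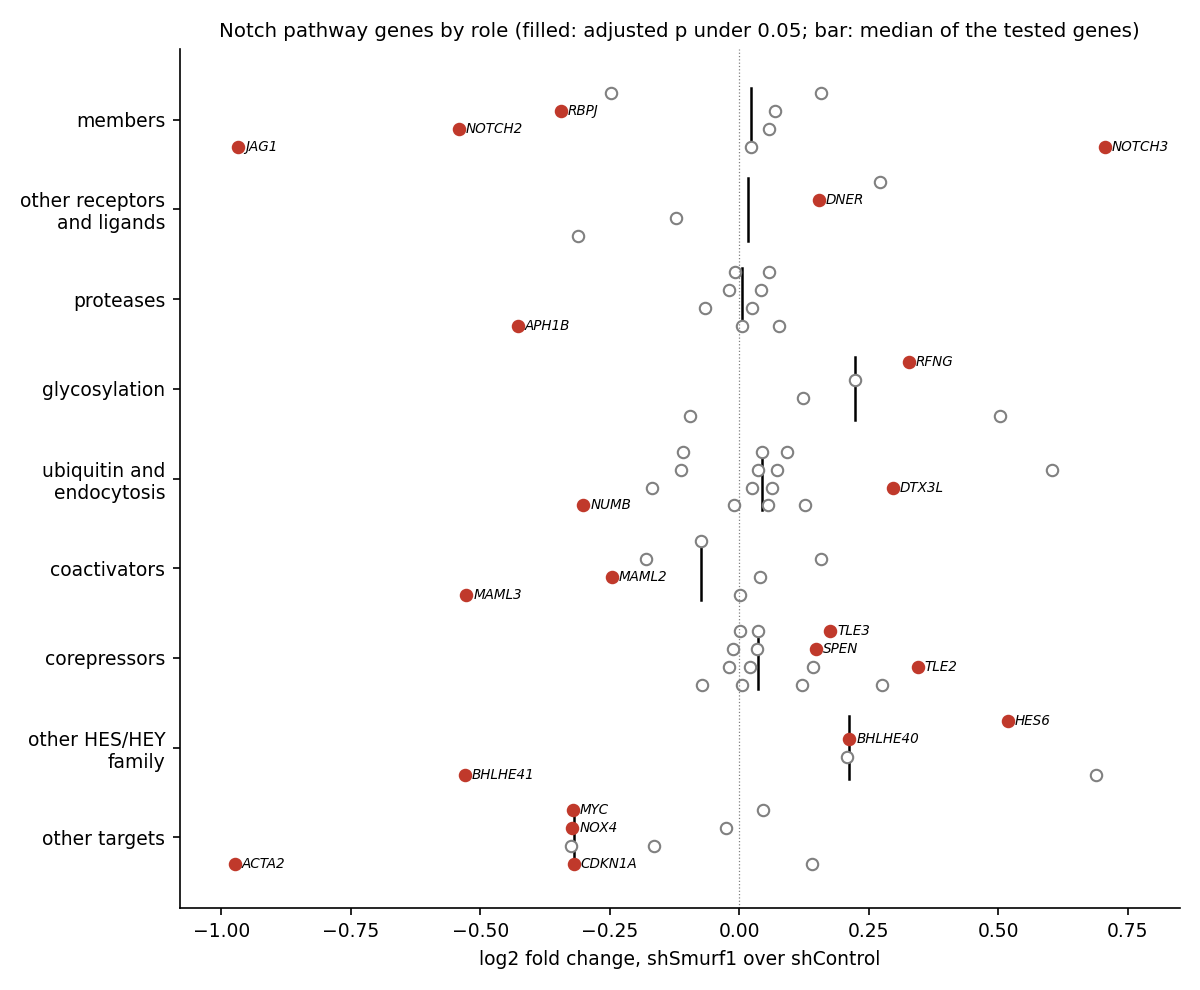
log2 fold change, shSmurf1 over shControl, of each tested Notch gene by role; points are spread vertically only for legibility. Filled and named points have an edgeR adjusted p under 0.05, open points do not, and the bar is the median of the tested genes of that role, at 0.02 for the 9 members and −0.32 for the 9 other targets.

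The genes whose pattern over the 8 libraries was most like that of NOTCH3 were TMEM132A, ITGB4 (integrin β4) and FAM57B, with root mean square distances of 0.0625, 0.0627 and 0.0633 on the log2 scale, among 11218 protein-coding genes. For JAG1 they were RGS4, a regulator of G-protein signalling, the death receptor gene FAS, and MECOM, at 0.0783, 0.0958 and 0.0993. NOTCH3 itself lay 0.373 and JAG1 0.485 from its own mean over the libraries by the same measure. The log2 fold changes of the 3 genes nearest to NOTCH3 were 0.79, 0.72 and 0.71, and those of the 3 nearest to JAG1 were −0.90, −0.95 and −0.84. Because the genes were picked by their pattern over the same 8 libraries, fold changes near those of NOTCH3 and JAG1 follow from the choice.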

How the data were processed

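The authors deposited raw read counts per gene for 8 libraries, whole numbers with no normalization. Per the labels' protocols, polyadenylated RNA from Trizol extracts was primed with random hexamers, with no step that marks the strand, and reads where genes overlap on opposite strands cannot be assigned to either. The submitters' processing notes name featureCounts version 1.5.0-p3, HISAT2 version 2.0.5, fastp and CASAVA, and a genome build is not given in the sources used here, nor an annotation. All 58735 identifiers were found in GENCODE release 29, which gave symbols, GRCh38 coordinates, exon lengths and GC content.

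Genes were kept by filterByExpr of edgeR version 4.0.16 (R version 4.3.3) with a minimum count of 10, scaled by TMM and tested with the quasi-likelihood F test, two-sided, shSmurf1 against shControl, with no covariate. p-values were adjusted by Benjamini-Hochberg over 15647 genes, with a threshold of 0.05. A standard error is the fold change on the log2 scale over the root of F, and 95% intervals use the t quantile. Replicates differed by more than sampling noise. The GC trend was a loess curve (span 0.3) of each library's log2 deviation, entered as an offset. Nearby genes are the 10 tested on each side. The closest patterns were sought among protein-coding genes whose average log2 CPM reached 2, on log2(CPM + 0.5) centred per gene.

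Alternatives were DESeq2 size factors, library totals alone, DESeq2 version 1.42.0, limma-voom (limma version 3.58.1), no filter, at least 4 libraries with a CPM of 1, a block for the replicate number, GC trend removal, and leaving out each library. GC trend removal together with leaving out shSmurf1 replicate 3 was chosen after seeing the data. The test was tested on simulated counts. Members and lists were chosen with earlier results of these data known. Named genes were SMURF1, the 10 members, of each other list up to 4 genes past the threshold by size and the gene with the highest RPKM among the rest, NOTCH2 copies with any count, and the 3 closest patterns of the member with the largest rise and of that with the largest fall. Overlapping genes, NOTCH4, DLL3, CD14, the detected lens markers and the RBPJ copies were named after their values were seen. One listed marker gene is not reported here.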

Additional observations from a re-analysis of the deposited data

Results flagged for a closer look

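RBPJ in shControl replicate 4 stood apart from its group. It had 106.5 CPM there, against 118.7 CPM in the nearest of the other shControl libraries, and the gap was 0.887 of the group's whole range, above Dixon's 95% critical value for 4 samples. Chance marks about 1 in 20 groups in this way, and 22 groups were tested. Leaving that library out did not end the call on RBPJ.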

How the results depend on the processing

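SMURF1, NOTCH2, NOTCH3, JAG1 and RBPJ kept their direction and stayed past the threshold under all 18 alternatives run. Their log2 fold changes lay between −0.82 and −0.78, −0.56 and −0.47, 0.60 and 0.79, −1.02 and −0.91, and −0.40 and −0.28. Genes higher in shSmurf1 numbered 1611, and 1216 to 2601 with 1 library left out, and genes lower 1916, and 1547 to 2747; both highest counts came without shSmurf1 replicate 3. Members higher numbered 1 to 2 with 1 library left out, the 2 being NOTCH3 and NOTCH1 without shSmurf1 replicate 3. Other pathway genes higher numbered 8, and 5 to 17 with 1 library left out: 5 without shSmurf1 replicate 1 or shControl replicate 1, 3 or 4, and 17 without shSmurf1 replicate 3. With the GC trend removed and that library left out there were 14. The cause was not tested.

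NOTCH1 turned to −0.041 with the GC trend removed, −0.0405 with the replicate block as well and −0.0294 without shSmurf1 replicate 3 as well, and lay between 0.000534 and 0.153 with 1 library left out. JAG2 passed with no filter on low counts (−0.248, adjusted p = 0.049, edgeR), and at −0.361, −0.362 and −0.336 in the 3 fits with the GC trend removed; with 1 library left out it lay between −0.296 and −0.148 and did not pass. HES1 ranged from −0.0576 to 0.0823, HEY1 from −0.00364 to 0.171 and HEYL from −0.0636 to 0.416 with 1 library left out, never past the threshold. In the same 3 GC fits NUMBL lay at −0.0224, −0.0224 and −0.0501, MAML1 at −0.031, −0.0324 and −0.0786, and AES at −0.0734, −0.0722 and −0.0761. MAML1 lay at −0.00017 with no filter and from −0.0255 to 0.0249 with 1 library left out, and AES from −0.0215 to 0.0608. HES4 (−0.0407) and CCND1 (−0.0389) turned in the GC fit without shSmurf1 replicate 3. Calls on HES4, NUMBL and DLK2 were gained without that library, and that on DLK2 also with library totals alone (adjusted p = 0.0439, edgeR). Calls on TLE3, NOX4, SPEN, DNER, MAML2 and RFNG were lost in 14, 13, 8, 7, 4 and 1 of the 18 alternatives.

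With the replicate block 3192 genes passed, against 3527 without it, and the calls on members did not change. Deviations from the group mean correlated at 0.0508, −0.00893, −0.163 and 0.0649 between same-numbered libraries. Between libraries of different numbers they correlated at −0.156 to 0.153. With 4 libraries per group this cannot show whether same-numbered libraries shared a culture or batch. Depth limits DLL1, HEYL and HEY1. HEYL gave no value under the filter at a CPM of 1 in 4 libraries, and DLL1 gave one only with no filter.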
